A study of Homo sapiens with 37 samples.

Results

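The genes described here are 8 that encode very large proteins: AHNAK, DYNC1H1, HUWE1, PRKDC, MACF1, SRRM2, UBR4 and FLNA. They were chosen by name, as long mRNAs of the kind held in stress granules, and were found by Ensembl ID. All 8 were present among the 60483 IDs of both count tables, and all 8 passed the filter on low counts, which left 12427 IDs in the table of unstressed cells and 16678 in the stress table. The study used APEX-seq in HEK293T, a human embryonic kidney cell line: a peroxidase fused to a protein of interest attaches biotin to RNA close to it during a pulse of H2O2. RNA bound to streptavidin beads is called the pulldown, and RNA not selected on beads the input.

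The unstressed (naive) cells carried APEX-CBX1, C1-APEX, APEX-eIF4E, APEX-eIF4A or APEX-GFP, each with 2 pulldowns and 2 inputs. CBX1 is a heterochromatin protein, eIF4E binds the mRNA cap, eIF4A is the RNA helicase that works beside it, and GFP has no RNA partner of its own; the labels do not say what C1 stands for. All stress-table cells carried APEX-eIF4A. Their groups were T0 (naive, 2 pulldowns and 2 inputs), T4 (heat shock, 1 and 1), T20 (heat shock, 2 and 2), hippuristanol (2 and 2) and its solvent DMSO (2 pulldowns, 1 input). The unit of T is not given in the labels, which also do not say how the fusions were expressed, how much hippuristanol was given, or whether replicates were separate cultures. The stress label of the hippuristanol inputs reads heat shock, and they were grouped by their titles.

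When translation initiation stops, mRNAs released from ribosomes can gather with RNA-binding proteins in stress granules, in which long and poorly translated mRNAs are over-represented. Heat shock represses initiation, and hippuristanol blocks the binding of eIF4A to RNA. An APEX fusion to eIF4A labels the RNA near that helicase, so its pulldown shows which mRNAs lie there, before and during stress.

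By role, 4 of the genes encode parts of the cytoskeleton or the cell cortex. AHNAK is a giant scaffold protein (ENSG00000124942.12; RefSeq GRCh38.p14, chr11:62433544-62546806). MACF1 links microtubules to actin (ENSG00000127603.22; chr1:39084167-39487138). FLNA crosslinks actin filaments (ENSG00000196924.13; chrX:154348531-154374634). DYNC1H1 is the heavy chain of the cytoplasmic dynein motor (ENSG00000197102.9; chr14:101964573-102056443). HUWE1 (ENSG00000086758.14; chrX:53532096-53686719) and UBR4 (ENSG00000127481.13; chr1:19074510-19210266) are ubiquitin ligases. The nuclear proteins are SRRM2, a spliceosome-associated protein of nuclear speckles (ENSG00000167978.15; chr16:2752638-2771412), and PRKDC, the DNA-dependent protein kinase of double-strand break repair (ENSG00000253729.6). Their genes span 18.8 kb (SRRM2) to 403 kb (MACF1), and 7 of 8 are longer than the median of 24.1 kb over 20056 protein-coding genes. A gene span includes introns; mRNA lengths were not used here, so levels are compared between samples of 1 gene and never between genes.

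The first transcribed bases of an mRNA lie beside the cap that eIF4E binds. RefSeq starts in GRCh38.p14 were used for 7 of 8 genes, 11 starts in all, and PRKDC was left out. Shown here is the first listed start of the 4 genes on which the results turn, as 20 bases before it in lower case and the first 10 transcribed bases in capitals.
AHNAK, chr11:62545817-62545846, minus strand: ggcgggatggcccccgccccAGAGCCTGGC
MACF1, chr1:39084147-39084176, plus strand: ttcacccctttctccttcagATCACTTCTC
HUWE1, chrX:53686710-53686739, minus strand: gccgaagcgaggaggctttcGACTGAGGGC
SRRM2, chr16:2752618-2752647, plus strand: gctgacgcacgcagttagtcGTGCTGACGT
None of the 11 starts opened with C followed by 4 pyrimidines, the form of the terminal oligopyrimidine mRNAs of ribosomal proteins, which 4.07% of 35116 RefSeq starts have. The paired heat-shock elements were searched on both strands in the 250 bases before each start. GAANNTTC was in 0 of 11 windows, against 5.78% of all windows, and TTCNNGAA in 1 of 11, a downstream start of HUWE1, against 6.62%. The first 50 transcribed bases had a median GC content of 70% over the 11 starts and 60% over all starts. These are descriptions of the listed starts, since the start used in these cells was not measured.

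Total counts per library were 1718517 to 3276410 in the 10 naive pulldowns, 1419968 to 2629957 in the 10 naive inputs, 707356 to 1221213 in the 9 stress-table pulldowns and 4540426 to 7782943 in the 8 stress-table inputs. Counts of the 8 genes ran from 193 to 2558 in naive pulldowns, 45 to 1097 in naive inputs, 30 to 2060 in stress-table pulldowns and 505 to 12163 in stress-table inputs, so a single pulldown value under stress can rest on few reads. The 10 highest IDs took 55.6% to 70.0% of counts in naive pulldowns and 68.6% to 75.3% in naive inputs. The second C1 pulldown resembled the first less than any other naive pulldown pair did (correlation of log2 CPM across IDs 0.761, against 0.904 to 0.951), and replicate pulldowns of the stress table correlated at 0.613 to 0.730. Levels are given as CPM, counts scaled to a common library total with TMM factors; each table was scaled by itself.

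In unstressed cells all 8 genes were called higher in the GFP pulldown than in the GFP input, 6 of 8 for eIF4E and for eIF4A, and AHNAK and MACF1 in every construct. Many of these calls were lost when 1 library was left out, and for eIF4A only those of HUWE1 and MACF1 held in every such fit. Most such fits also called fewer IDs over the whole table. In them the median log2 fold change of the 8 genes was 0.48 to 0.64 for eIF4A and 0.65 to 0.73 for eIF4E. It was 0.69 to 0.87 for GFP, 0.14 to 0.19 for CBX1 and 0.19 to 0.35 for C1. In such bulk samples, fewer cells with a transcript and less of it per cell cannot be told apart. Called IDs are those with an edgeR quasi-likelihood adjusted p under 0.05 over all 12427 IDs. For GFP 8 of 8 were called higher, where 1.95% of all IDs were. For eIF4E it was 6 of 8 (1.22% of all IDs) and for eIF4A 6 of 8 (1.16%). For CBX1 it was 2 of 8 (1.6%) and for C1 3 of 8 (2.89%). Called lower were 0 of 8 genes in each construct, where 2.31% of all IDs were for CBX1, 3.56% for C1, 1.02% for eIF4A, 1.29% for eIF4E and 2.09% for GFP. Together the 8 genes took 0.412% ± 0.00890 of counts in eIF4E pulldowns and 0.142% ± 0.0172 in eIF4E inputs, 0.345% ± 0.0388 and 0.135% ± 0.00890 for eIF4A, and 0.389% ± 0.0114 and 0.194% ± 0.00346 for GFP (SD, n = 2 each). The shares for CBX1 were 0.320% ± 0.0224 in pulldowns and 0.221% ± 0.0126 in inputs, and for C1 0.258% ± 0.0459 and 0.187% ± 0.00489.

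AHNAK had the highest log2 fold change of the 8 in each construct. Its level was 103 and 92.1 CPM in CBX1 pulldowns, against 47.8 and 59.4 CPM in CBX1 inputs. In C1 cells it was 174 and 82.7 CPM in pulldowns, against 66.5 and 67.8 CPM in inputs. Both pulldowns of each of these constructs lay above both inputs, but the C1 pulldowns lay far apart. In eIF4E cells AHNAK measured 137 and 150.5 CPM in pulldowns, against 71.1 and 68.6 CPM in inputs. In eIF4A cells the values were 83.0 and 84.4 CPM in pulldowns, against 44.2 and 36.7 CPM in inputs. In GFP cells they were 108 and 89.5 CPM in pulldowns, against 44.5 and 42.6 CPM in inputs. The inputs held only 45 to 108 counts of AHNAK, the smallest numbers of the 8 genes. Its log2 fold change ran from 0.86 ± 0.22 (SE) for CBX1 to 1.18 ± 0.23 for GFP, with edgeR adjusted p of 0.0268 for CBX1, 0.0139 for C1, 0.0113 for eIF4A, 0.00595 for eIF4E and 0.00184 for GFP. With 1 library left out, the AHNAK call was lost in 4 of 4 fits for eIF4A (edgeR adjusted p = 0.0628 to 0.33), in 3 of 4 for CBX1 (0.0457 to 0.348 over the 4), in 3 of 4 for C1, in 2 of 4 for eIF4E and in 0 of 4 for GFP. The C1 value of 0.92 ± 0.22 became 0.30 when C1 pulldown replicate 1 was left out and 1.38 when C1 pulldown replicate 2 was. Fitting only the libraries compared also ended the C1 call (edgeR adjusted p = 0.427).

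MACF1 was likewise called higher in all 5 constructs. It measured 249 and 238 CPM in CBX1 pulldowns, against 129 and 148 CPM in CBX1 inputs, and 253 and 222 CPM in C1 pulldowns, against 143 and 147 CPM in C1 inputs. The level was 223 and 181 CPM in eIF4E pulldowns, against 112 and 105 CPM in eIF4E inputs. In eIF4A cells it was 217 and 249.6 CPM in pulldowns, against 119 and 117 CPM in inputs. The pulldowns of every construct stood clear of the inputs, which ranged over all constructs from 105 to 148 CPM. In GFP cells the pulldowns held 229 and 303 CPM, against 124 and 129 CPM in the inputs. The log2 fold changes were 0.81 ± 0.14 (SE) for CBX1, 0.71 ± 0.15 for C1, 0.99 ± 0.15 for eIF4A, 0.89 ± 0.15 for eIF4E and 1.07 ± 0.14 for GFP (edgeR adjusted p = 0.00109, 0.00454, 8.8e-05, 0.000398 and 3.0e-05 in that order). For eIF4A, eIF4E and GFP the call held whichever library was left out. It was lost for CBX1 without CBX1 input replicate 1 (edgeR adjusted p = 0.0624), and for C1 without C1 input replicate 1 (0.0777) and with only the libraries compared (0.306).

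Among the other cytoskeletal genes, DYNC1H1 was called higher for eIF4A and GFP, and FLNA for GFP alone. DYNC1H1 had 305 and 318 CPM in eIF4A pulldowns, against 183 and 217 CPM in eIF4A inputs, and 479 and 471 CPM in GFP pulldowns, against 253 and 285 CPM in GFP inputs. Its log2 fold change was 0.63 ± 0.17 (SE) for eIF4A and 0.82 ± 0.17 for GFP (edgeR adjusted p = 0.0481 and 0.00309). Leaving out any of the 4 eIF4A libraries ended the eIF4A call (edgeR adjusted p = 0.159 to 0.472), and the GFP call without GFP input replicate 1 (0.107). For eIF4E the fold change was similar in size, 0.59 ± 0.17, but missed the threshold (edgeR adjusted p = 0.0667), which it passed with DESeq2 (0.0455) and with a replicate block (0.0205). In CBX1 cells the pulldowns held 329.6 and 409 CPM on either side of the inputs at 358 and 360.3 CPM, a log2 fold change of 0.04 ± 0.17. FLNA had 535 CPM in each GFP pulldown, against 352 and 363 CPM in GFP inputs, a log2 fold change of 0.58 ± 0.12 (edgeR adjusted p = 0.00387), and the call was lost without GFP input replicate 1 (0.0863). In eIF4E cells FLNA missed the threshold narrowly (0.44 ± 0.12, edgeR adjusted p = 0.0533) and passed when eIF4E pulldown replicate 2 was left out (0.0311). FLNA was the single gene with a negative value for CBX1, -0.13 ± 0.12, and its 313 and 379 CPM in CBX1 pulldowns overlapped the 396 and 360.3 CPM of the inputs. The remaining values, uncalled, were 0.27 ± 0.17 for DYNC1H1 with C1, and 0.22 ± 0.12 with C1 and 0.29 ± 0.12 with eIF4A for FLNA. The DYNC1H1 value with C1 was 0.62 when C1 pulldown replicate 2 was left out and -0.18 when C1 pulldown replicate 1 was.

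Both ubiquitin ligases were called higher for eIF4E and GFP, and HUWE1 also for eIF4A. HUWE1 measured 768 and 739 CPM in eIF4E pulldowns, against 429 and 385 CPM in eIF4E inputs, and 521 and 511 CPM in eIF4A pulldowns, against 312 and 339 CPM in eIF4A inputs. In GFP cells it measured 616 and 612 CPM in pulldowns, against 327 CPM in each input. HUWE1 had the smallest adjusted p of the 8 genes for GFP and eIF4E (edgeR, 3.1e-06 and 2.6e-06), at log2 fold changes of 0.91 ± 0.11 (SE) for GFP and 0.89 ± 0.11 for eIF4E. For eIF4A it was 0.66 ± 0.11 (edgeR adjusted p = 0.000312). In CBX1 cells the HUWE1 pulldowns held 435 and 451 CPM, against 402 and 386 CPM in the inputs, and in C1 cells 469.9 and 503 CPM, against 419 and 401 CPM. Neither was called, at 0.17 ± 0.11 for CBX1 and 0.25 ± 0.11 for C1, although the pulldowns again lay above the inputs. UBR4 measured 300.1 and 283 CPM in eIF4E pulldowns, against 171 and 178 CPM in eIF4E inputs, and 243 and 281 CPM in GFP pulldowns, against 147 and 169 CPM in GFP inputs. It was called for these constructs, at 0.74 ± 0.13 for eIF4E and 0.73 ± 0.13 for GFP (edgeR adjusted p = 0.000984 and 0.000986), and not for eIF4A (0.40 ± 0.13, edgeR adjusted p = 0.143), CBX1 (0.23 ± 0.13) or C1 (0.06 ± 0.13). The UBR4 call for GFP was lost without GFP input replicate 1 (edgeR adjusted p = 0.0596).

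Of the genes for nuclear proteins, PRKDC (GRCh38.p14, chr8:47773111-47960136) was called for eIF4E, eIF4A and GFP, and SRRM2 for these and for C1. PRKDC held 504 and 488 CPM in eIF4E pulldowns, against 349.8 and 296 CPM in eIF4E inputs, and 700.3 and 817 CPM in GFP pulldowns, against 429.8 and 502 CPM in GFP inputs. Its log2 fold change was 0.62 ± 0.12 (SE) for eIF4E, 0.45 ± 0.12 for eIF4A and 0.70 ± 0.12 for GFP (edgeR adjusted p = 0.00287, 0.0473 and 0.00064). Leaving out any of the 4 eIF4A libraries ended the PRKDC call for eIF4A (edgeR adjusted p = 0.138 to 0.378), and the eIF4E call was lost without eIF4E input replicate 2 (0.175). With the CBX1 fusion, its 561 and 600.3 CPM in pulldowns overlapped the inputs at 579.9 and 547 CPM (0.04 ± 0.12), and with C1 the value was 0.13 ± 0.12. SRRM2 measured 427 and 441 CPM in eIF4E pulldowns, against 319 and 306 CPM in eIF4E inputs, and 409 and 478 CPM in GFP pulldowns, against 298 and 289 CPM in GFP inputs. The C1 pulldowns held 381 and 402 CPM of it, against 304 and 284 CPM in C1 inputs. SRRM2 had fold changes in a narrow range for the called constructs, from 0.41 ± 0.12 for C1 to 0.59 ± 0.11 for GFP (edgeR adjusted p = 0.0303 and 0.0019); for CBX1 it was 0.19 ± 0.11 and uncalled. With 1 library left out the SRRM2 call was lost in 4 of 4 fits for eIF4A (edgeR adjusted p = 0.0729 to 0.465), 4 of 4 for eIF4E (0.0748 to 0.27), 2 of 4 for C1 (0.0336 to 0.211 over the 4) and 1 of 4 for GFP (without GFP pulldown replicate 2, 0.0713). The eIF4A call was also lost with no count filter (edgeR adjusted p = 0.0584) and with a replicate block (0.0647), the eIF4E call with only the libraries compared (0.0703), and the C1 call with only the libraries compared (0.413) and with no count filter (0.227).

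As a group, the median log2 fold change of the 8 genes was 0.18 for CBX1, 0.26 for C1, 0.54 for eIF4A, 0.68 for eIF4E and 0.78 for GFP. Over all 12427 IDs the medians lay between 0.00 and 0.02. All pulldowns lay above all inputs for 8 of 8 genes with eIF4E, eIF4A and GFP, where 24.0%, 26.0% and 24.6% of all IDs did so. For CBX1 and C1 it was 5 of 8 genes each (26.5% and 22.0% of all IDs). Scaling by library size alone raised the all-ID median to 0.41 for CBX1, 0.18 for C1, 0.82 for eIF4A, 0.89 for eIF4E and 0.24 for GFP, and that of the 8 genes to 0.57, 0.45, 1.35, 1.54 and 1.02 in the same order. Fold changes here are therefore relative to the TMM scaling.

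**Figure D1:**
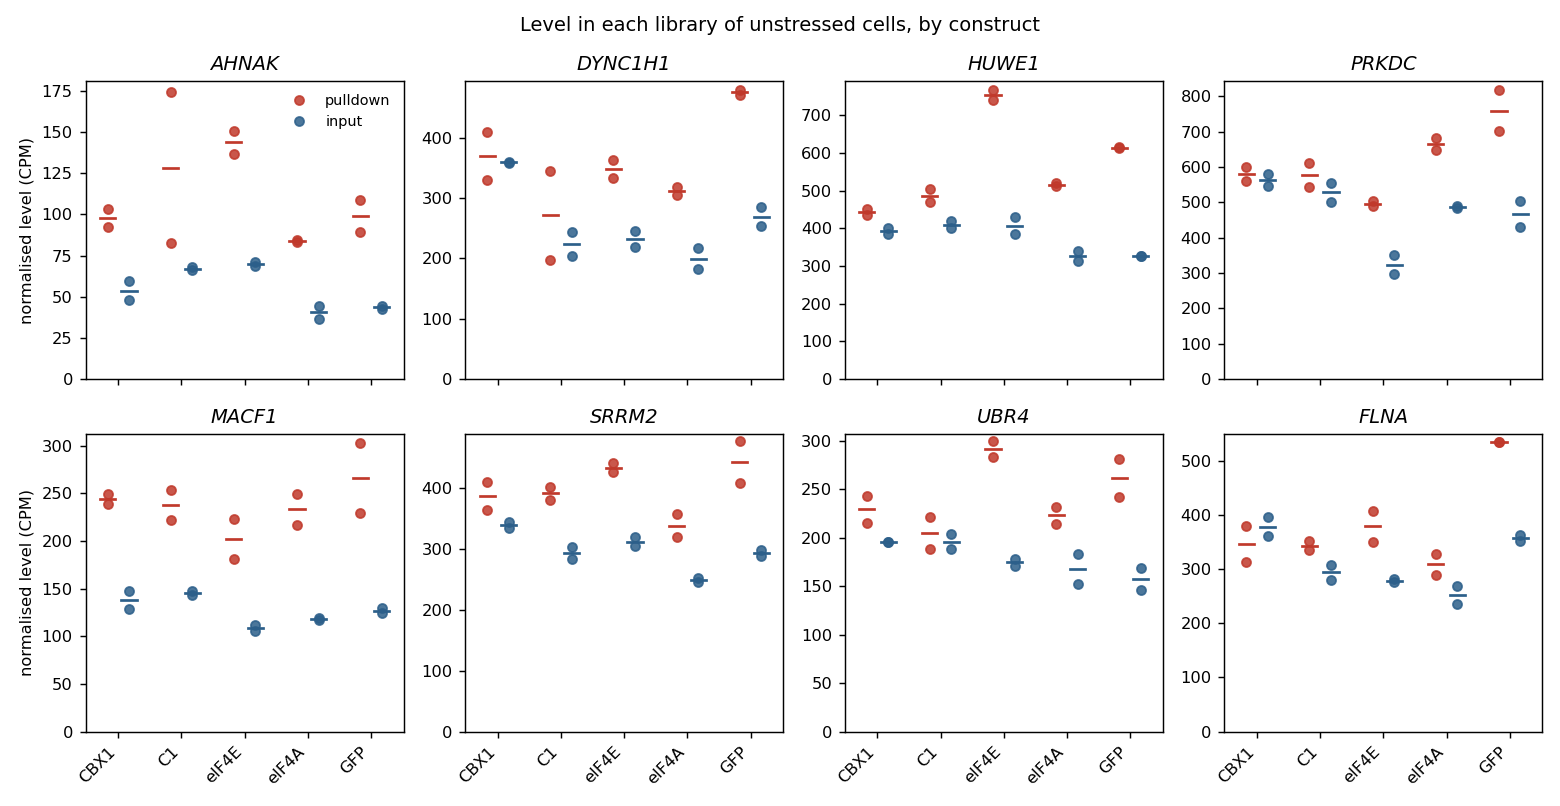
Normalised level (CPM, linear axis from 0) of each of the 8 genes in every naive library, with pulldowns left of inputs and constructs from CBX1 to GFP; short bars are means of 2 libraries. AHNAK and MACF1 pulldowns stand above inputs in all 5 constructs, and C1 has 1 AHNAK pulldown at 174 CPM and 1 at 82.7 CPM.

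**Figure D2:**
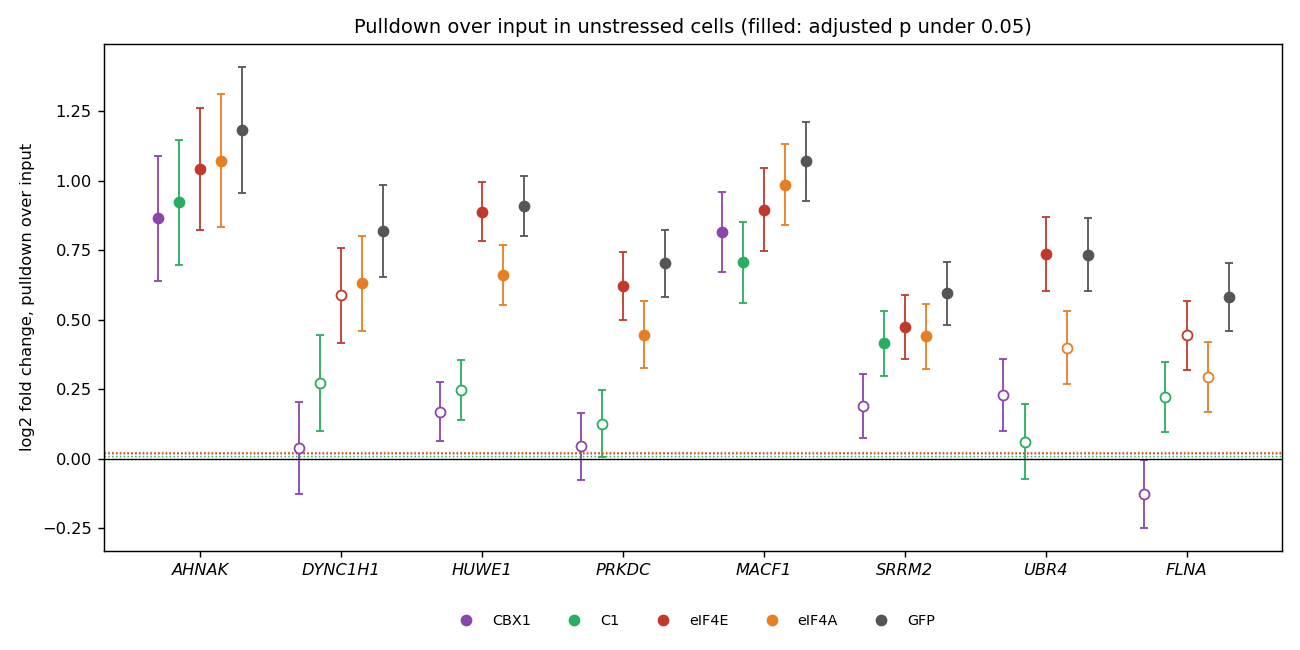
Log2 fold change of pulldown over input for each gene and construct, with bars of 1 SE and filled points where the edgeR adjusted p is under 0.05; dotted lines are medians over all 12427 IDs. All 8 GFP points are filled, against 2 of 8 for CBX1 and 3 of 8 for C1.

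Whether a construct differed from GFP in pulldown over input was tested as the difference between the 2 fold changes, since GFP is the fusion with no partner of its own. For CBX1 all 8 genes had a lower value than for GFP, with a median difference of -0.58 on the log2 scale and a range from -0.78 ± 0.23 (SE, DYNC1H1) to -0.26 ± 0.20 (MACF1). The all-ID median was 0.02. HUWE1 was called lower for CBX1, at -0.74 ± 0.15 (edgeR adjusted p = 0.0382), where 0.0241% of all IDs were called lower and 0.137% higher. It rests on the values above, 435 and 451 CPM in CBX1 pulldowns and 402 and 386 CPM in CBX1 inputs, against 616 and 612 CPM in GFP pulldowns and 327 CPM in each GFP input. The size changed little when single libraries were left out (-0.77 to -0.71), but the call was lost in all 8 such fits (edgeR adjusted p = 0.0694 to 0.258). Over the other settings its adjusted p ran from 0.000216 with DESeq2 to 0.466 with library-size scaling. An unadjusted p under 0.05 was found for 6 of 8 genes, against 7.34% of all IDs, and AHNAK and MACF1 were the exceptions. The values for the uncalled genes were -0.71 ± 0.17 for FLNA, -0.66 ± 0.17 for PRKDC, -0.51 ± 0.19 for UBR4, -0.41 ± 0.16 for SRRM2 and -0.32 ± 0.32 for AHNAK. DESeq2 called 4 of 8 lower, namely DYNC1H1, HUWE1, PRKDC and FLNA, where it called 0.354% of all IDs in either direction.

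For C1 minus GFP all 8 values were also below 0, with a median of -0.45, but 0 of 8 genes and 0 of 12427 IDs were called (edgeR), and DESeq2 called 0 of 8. By unadjusted p under 0.05, 5 of 8 genes passed, against 8.41% of all IDs. UBR4 had the lowest value, -0.67 ± 0.19 (SE), followed by HUWE1 at -0.66 ± 0.15, PRKDC at -0.58 ± 0.17 and DYNC1H1 at -0.55 ± 0.24. MACF1 and FLNA each stood at -0.36 (SE 0.20 and 0.17), AHNAK at -0.26 ± 0.32 and SRRM2 at -0.18 ± 0.16. The DYNC1H1 value depended on the C1 pulldowns, which held 345 and 198 CPM. It became -0.998 when C1 pulldown replicate 1 was left out and -0.20 when C1 pulldown replicate 2 was. Both comparisons use the same GFP libraries.

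For the initiation factors, none of the differences from GFP passed. For eIF4E minus GFP the median was -0.13, with values from -0.23 ± 0.24 (SE, DYNC1H1) to 0.00 ± 0.19 (UBR4); MACF1, AHNAK, FLNA, SRRM2, PRKDC and HUWE1 lay between, at -0.17, -0.14, -0.14, -0.12, -0.08 and -0.02. For eIF4A minus GFP the median was -0.22, with values from -0.33 ± 0.19 (UBR4) to -0.08 ± 0.20 (MACF1); FLNA, PRKDC, HUWE1, DYNC1H1, SRRM2 and AHNAK lay between, at -0.29, -0.26, -0.25, -0.19, -0.15 and -0.11. By edgeR 0 of 8 genes and 0 IDs were called in either, and by DESeq2 0 of 8 genes. By unadjusted p under 0.05 it was 0 of 8 in either, against 3.8% and 3.31% of all IDs. These signs depend on the scaling: by library size alone the medians of the 8 genes were 0.49 and 0.34, below all-ID medians of 0.65 and 0.59. Between eIF4A and eIF4E the median difference was -0.09, with UBR4 at -0.34 ± 0.19 and HUWE1 at -0.23 ± 0.15 lowest and MACF1 at 0.09 ± 0.21 highest; PRKDC, FLNA, SRRM2, AHNAK and DYNC1H1 were at -0.18, -0.15, -0.03, 0.03 and 0.04. Again 0 of 8 genes passed, by edgeR, by DESeq2 or by unadjusted p (2.02% of all IDs by unadjusted p).

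**Figure D3:**
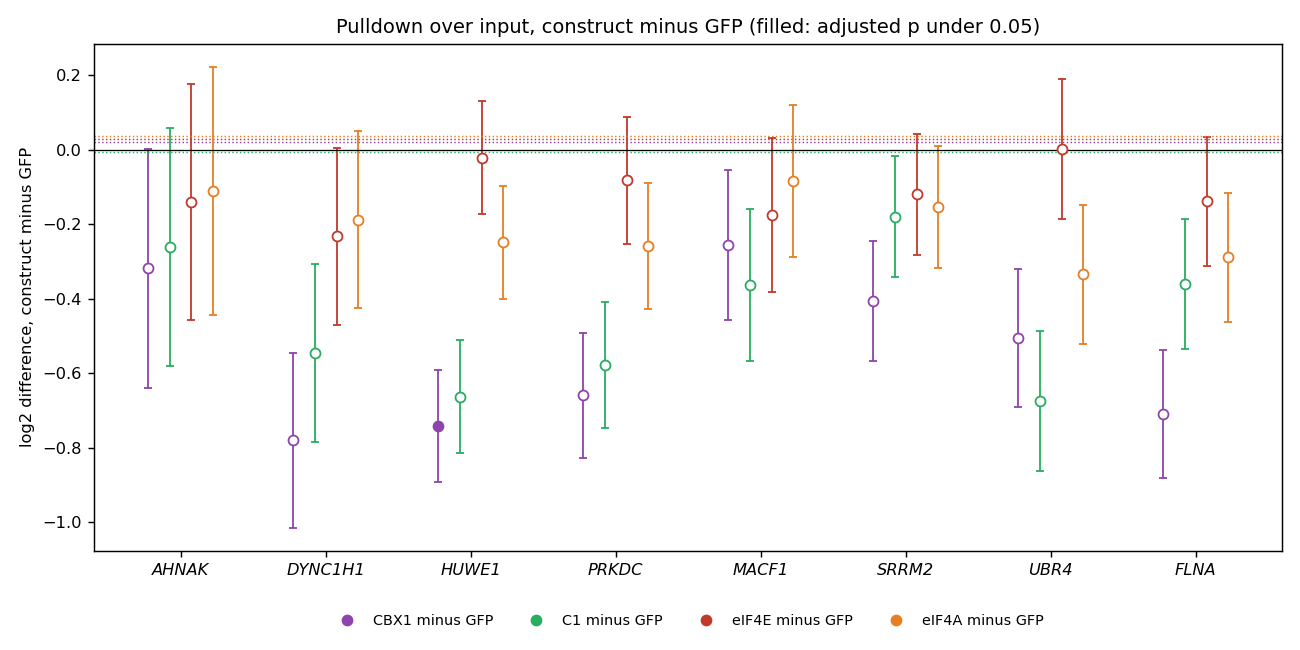
Log2 difference in pulldown over input between each construct and GFP, with bars of 1 SE; filled points have an edgeR adjusted p under 0.05 and dotted lines are medians over all IDs. The CBX1 and C1 points lie below 0 for all 8 genes, and HUWE1 in CBX1 is the filled point at -0.74.

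In the stress table none of the 8 genes was called higher in pulldowns than in inputs. At T0, which was labelled naive and carried the same fusion, 0 of 8 genes were called (edgeR). Over all IDs 0.3% were called higher and 0.06% lower. DESeq2 called 0 of 8. An unadjusted p under 0.05 was found for 2 of 8, both lower, against 10.7% of all IDs. Their median log2 fold change was -0.40, against an all-ID median of -0.55, and 6 of 8 genes lay above the latter. These values depended on the scaling. By library size alone the medians were -0.93 for the 8 genes and -1.045 for all IDs, and with DESeq2 -0.09 and -0.13. AHNAK had 163 and 71.7 CPM in T0 pulldowns, against 125 and 119 CPM in T0 inputs, and MACF1 had 184 and 139 CPM in T0 pulldowns, against 317 and 215 CPM in T0 inputs. UBR4 had 446 and 325 CPM in T0 pulldowns, against 661 and 545 CPM in T0 inputs. AHNAK pulldowns thus lay on both sides of the inputs and MACF1 and UBR4 pulldowns below them, whereas in the naive table the eIF4A fold changes of AHNAK and MACF1 were 1.07 and 0.99. Every T0 pulldown lay below every T0 input for HUWE1, MACF1, UBR4 and FLNA, 4 of 8 genes (39.6% of all IDs), and above for 0 of 8 (7.45%). The T0 log2 fold changes were -0.72 ± 0.33 (SE) for MACF1, -0.64 ± 0.28 for UBR4, -0.48 ± 0.26 for FLNA, -0.44 ± 0.30 for PRKDC, -0.36 ± 0.25 for HUWE1, -0.09 ± 0.32 for DYNC1H1, -0.04 ± 0.48 for AHNAK and 0.38 ± 0.29 for SRRM2. The tables were scaled separately and this difference was not tested. Their libraries also differed in make-up: the 10 highest IDs held 16.7% to 30.7% of counts in stress-table pulldowns and 6.08% to 16.3% in its inputs.

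The same comparison gave 0 of 8 called genes (edgeR) at T20, under hippuristanol and in DMSO. DMSO had a single input library, so its values take their spread from the other groups of the table, and that library is assumed to vary as they do. For T20 the medians were -0.52 for the 8 genes and -0.29 for all IDs (0.252% called higher, 0.12% lower), for hippuristanol -0.16 and -0.36 (0.246% higher, 0.006% lower), and for DMSO -0.32 and -0.46 (0.174% higher, 0.126% lower). An unadjusted p under 0.05 was found for 4, 0 and 1 of 8 genes, against 13.2%, 5.76% and 12.9% of all IDs. DESeq2 called 1 of 8 at T20 (3.95% of all IDs in either direction) and 0 of 8 in the others. The medians again depended on the scaling. By library size alone those of the 8 genes were -0.77 at T20, -0.63 under hippuristanol and -0.63 in DMSO. The all-ID medians were then -0.55, -0.83 and -0.77. With DESeq2 the 8 genes had -0.33, 0.02 and -0.03, against -0.08, -0.13 and -0.14 for all IDs. At T20 the genes spread widest: SRRM2 stood at 0.94 ± 0.29 (SE) and PRKDC at -0.94 ± 0.30 (edgeR adjusted p = 0.226 and 0.233). With same-numbered inputs and pulldowns as a block both passed (edgeR adjusted p = 0.0349 and 0.0321), and with DESeq2 SRRM2 did. The remaining T20 values ran from -0.75 ± 0.28 for UBR4 through MACF1, HUWE1, DYNC1H1 and AHNAK to 0.23 ± 0.26 for FLNA. Every T20 pulldown lay below every T20 input for 5 of 8 genes (DYNC1H1, HUWE1, PRKDC, MACF1 and UBR4; 37.9% of all IDs) and above for SRRM2 (15.5%). Under hippuristanol it was below for 4 of 8 (HUWE1, PRKDC, MACF1 and UBR4; 36.4%) and above for SRRM2 (11.8%), at 0.51 ± 0.29. The other hippuristanol values ran from -0.43 ± 0.47 for AHNAK through MACF1, UBR4, DYNC1H1, PRKDC and HUWE1 to -0.11 ± 0.26 for FLNA. In DMSO both pulldowns lay below the single input for 5 of 8 (AHNAK, HUWE1, PRKDC, MACF1 and UBR4; 48.3%) and above it for 0 of 8 (12.2%). The DMSO values ran from -1.13 ± 0.39 for MACF1 through HUWE1, AHNAK, UBR4, PRKDC, DYNC1H1 and SRRM2 to 0.20 ± 0.32 for FLNA.

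Heat shock was then compared within each fraction. In inputs, which reflect the total RNA of the cells, 0 of 8 genes were called between T20 and T0 (edgeR). Over all IDs 1.15% were called higher and 0.006% lower. DESeq2 called 0 of 8. An unadjusted p under 0.05 was found for 1 of 8, MACF1, against 12.9% of all IDs. MACF1 had 428 and 457 CPM in T20 inputs, against 317 and 215 CPM in T0 inputs, a log2 fold change of 0.73 ± 0.28 (SE; edgeR adjusted p = 0.269). SRRM2 had 739 and 719 CPM in T20 inputs, against 552 and 459 CPM in T0 inputs (0.53 ± 0.27, edgeR adjusted p = 0.442). T20 inputs lay above T0 inputs for 4 of 8 genes, AHNAK, MACF1, SRRM2 and UBR4 (24.4% of all IDs), and below them for DYNC1H1 (16.8% of all IDs). AHNAK was at 0.35 ± 0.33, UBR4 at 0.38 ± 0.27 and DYNC1H1 at -0.15 ± 0.28. HUWE1, PRKDC and FLNA overlapped, with values of -0.01 ± 0.28, -0.06 ± 0.33 and -0.11 ± 0.31.

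In the APEX-eIF4A pulldowns, SRRM2 was called higher at T20 than at T0 in the main fit, but not in the input-adjusted one. It had 878 and 437 CPM in T0 pulldowns, 599 CPM in the single T4 pulldown and 1479.8 and 1326 CPM in T20 pulldowns. The T4 value rests on 452 counts, with an exact Poisson 95% interval of 545 to 657 CPM that covers counting error only. Both T20 pulldowns stood above the T0 and T4 pulldowns, while the T0 pulldowns differed from each other by more than the T20 ones did. The log2 fold change of T20 over T0 was 1.09 ± 0.29 (SE), or 2.13-fold (edgeR adjusted p = 0.0433), where 0.21% of all IDs were called higher and 0.234% lower. It was 1.68 without T0 pulldown replicate 1 and 0.68 without T0 pulldown replicate 2. The call was lost in 3 of 4 such fits (edgeR adjusted p = 7.4e-05 to 0.831) and also with all libraries of the table, with only the libraries compared, without a count filter and with a replicate block. Over those and the remaining settings the adjusted p was 0.0200 with DESeq2 to 0.127 with all libraries. SRRM2 inputs stood at 0.53, as given above, and the input-adjusted difference was 0.56 ± 0.41 (edgeR adjusted p = 0.786).

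The other 7 genes did not pass between T20 and T0 pulldowns. MACF1 was at 0.79 ± 0.49 (SE), with 292 and 267 CPM in T20 pulldowns, against 184 and 139 CPM in T0 pulldowns. FLNA was at 0.59 ± 0.27, with 1254 and 1047 CPM in T20 pulldowns, against 689 and 836 CPM in T0 pulldowns. For both, the T20 pulldowns lay above the T0 ones, as for SRRM2 (19.0% of all IDs). PRKDC lay lower, with 385 and 583 CPM in T20 pulldowns, against 799 and 619 CPM in T0 pulldowns (-0.55 ± 0.30; 12.8% of all IDs lay lower without overlap). DYNC1H1 had 769 and 324 CPM in T20 pulldowns, against 767 and 860.2 CPM in T0 pulldowns (-0.57 ± 0.31), so that 1 of its T20 pulldowns overlapped those of T0. AHNAK, UBR4 and HUWE1 overlapped, at 0.47 ± 0.56, 0.27 ± 0.36 and -0.18 ± 0.30. The median over the 8 genes was 0.37, against 0.09 over all IDs, and 0.72 against 0.51 with library-size scaling. Input-adjusted, 0 of 8 genes and 0.0% of all IDs were called (edgeR). DESeq2 also called 0 of 8 genes. An unadjusted p under 0.05 was found for 0 of 8, against 7.35% of all IDs. FLNA had the largest input-adjusted difference, 0.71 ± 0.37, and PRKDC the lowest, -0.50 ± 0.43; DYNC1H1, HUWE1, UBR4, MACF1 and AHNAK were at -0.43, -0.17, -0.10, 0.05 and 0.12.

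The single T4 libraries have no replicate check, and the T0 pulldowns correlated with each other at 0.649 (log2 CPM across IDs). How many of all IDs lay outside the T0 pulldowns at T4 was not counted, so these placements are descriptions. The intervals cover counting error only. DYNC1H1 had 549.7 CPM in the T4 pulldown (exact Poisson 95% interval 498 to 605) and HUWE1 551 CPM (499 to 607), below both T0 pulldowns of either gene. MACF1 was at 106 CPM on 80 counts (84.0 to 132), lower than in both T0 and both T20 pulldowns. PRKDC, at 968 CPM (899 to 1041), and FLNA, at 1024 CPM (953 to 1099), lay above both T0 pulldowns. AHNAK, at 109 CPM on 82 counts (86.4 to 135), and UBR4, at 430.5 CPM (385 to 479.9), lay between the T0 pulldowns. In the T4 input SRRM2 had 454 CPM (439 to 469), just under the T0 inputs.

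**Figure D4:**
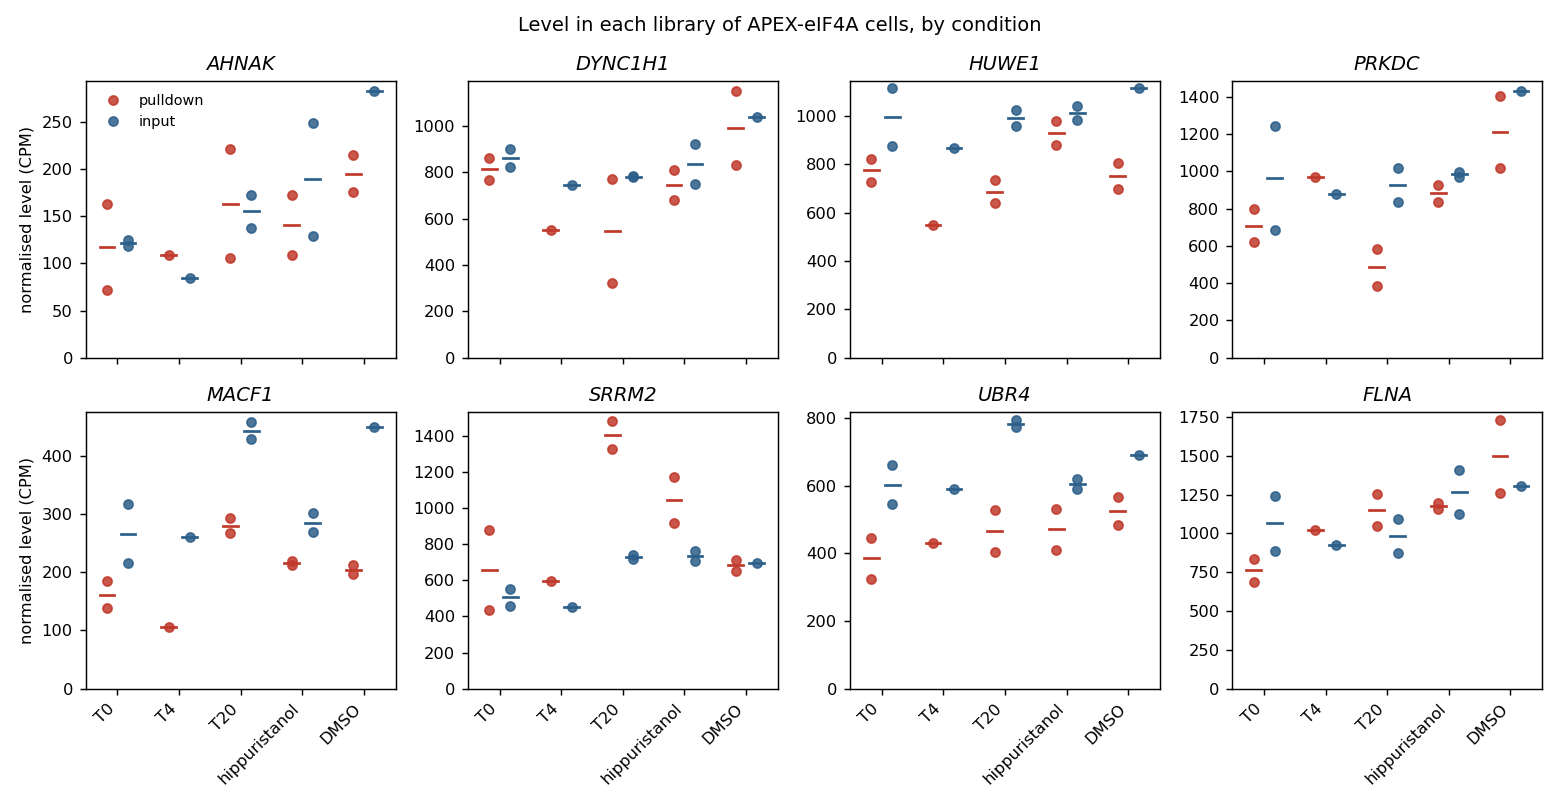
Normalised level (CPM, linear axis from 0) of each gene in every library of APEX-eIF4A cells, with pulldowns left of inputs; short bars are group means and T4 and the DMSO input are single libraries. SRRM2 pulldowns at T20 (1479.8 and 1326 CPM) and under hippuristanol (915 and 1173 CPM) stand above both T0 and both DMSO pulldowns.

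Hippuristanol was compared with DMSO in pulldowns, to see which RNAs near eIF4A changed when the helicase was blocked. Of the 8 genes 0 were called (edgeR), where 0.054% of all IDs were called higher and 0.0% lower. DESeq2 called 0 of 8. An unadjusted p under 0.05 was found for 1 of 8, SRRM2, against 4.13% of all IDs. SRRM2 had 915 and 1173 CPM in hippuristanol pulldowns, against 652 and 713 CPM in DMSO pulldowns, a log2 fold change of 0.61 ± 0.29 (SE; edgeR adjusted p = 1.0). HUWE1 had 882 and 979 CPM in hippuristanol pulldowns, against 699 and 805 CPM in DMSO pulldowns (0.31 ± 0.30). For SRRM2 and HUWE1 both hippuristanol pulldowns lay above both DMSO ones, as for 18.8% of all IDs. Both lay below for AHNAK, DYNC1H1, PRKDC and FLNA, as for 9.61% of all IDs. PRKDC, for example, had 927 and 837 CPM in hippuristanol pulldowns, against 1405 and 1016 CPM in DMSO pulldowns (-0.46 ± 0.29). AHNAK was at -0.48 ± 0.55, DYNC1H1 at -0.41 ± 0.30 and FLNA at -0.34 ± 0.27, and MACF1 and UBR4 overlapped (0.07 ± 0.48 and -0.16 ± 0.35). The median over the 8 genes was -0.25, against 0.04 over all IDs. The DMSO input was 1 library, so inputs were not tested, and the pulldown values above are not corrected for total RNA. SRRM2 had 760.3 and 709.6 CPM in hippuristanol inputs, against 699 CPM in the DMSO input. The same inputs held 997 and 972 CPM of PRKDC, against 1432 CPM, and 249.5 and 129 CPM of AHNAK, against 283 CPM. For DYNC1H1 they held 922 and 749 CPM, against 1039 CPM, and for HUWE1 1041 and 984 CPM, against 1114 CPM. FLNA had 1409 and 1127 CPM, on either side of 1304 CPM in the DMSO input.

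**Figure D5:**
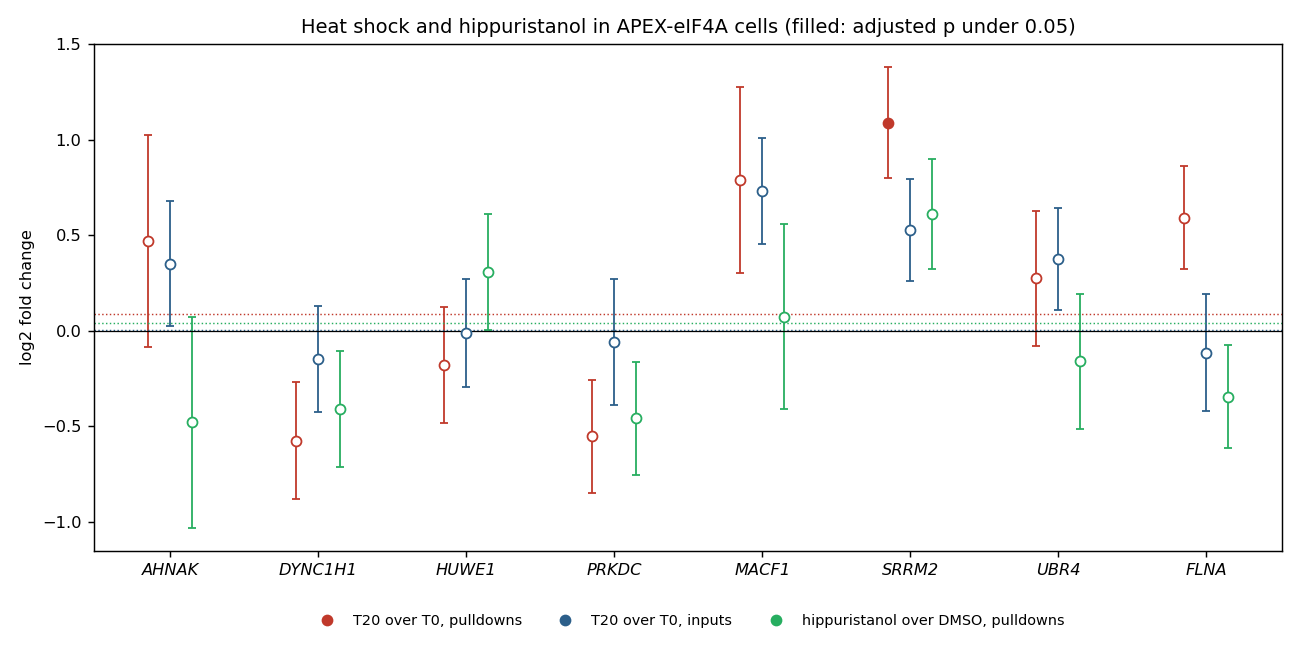
Log2 fold change of each gene for T20 over T0 in pulldowns and in inputs and for hippuristanol over DMSO in pulldowns, with bars of 1 SE and dotted lines at the all-ID medians; filled points have an edgeR adjusted p under 0.05. SRRM2 at T20 in pulldowns (1.09) is the filled point, and PRKDC and DYNC1H1 lie below 0 in all 3 comparisons.

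The 8 genes followed one another to differing degrees across libraries. After centring log2 CPM within each table, the correlation of a gene with the mean of the other 7 over 37 libraries ran from 0.33 for SRRM2 to 0.77 for UBR4; the points share fractions, constructs and scaling, and this is a description. Among 1980 IDs whose mean log2 CPM was 5 or more in both tables, ENSG00000196367.11 (r = 0.876) and ENSG00000100354.19 (r = 0.857) followed the mean of the 8 most closely, where the median ID had r = 0.101.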

How the data were processed

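RNA was labelled with 500 µM biotin-phenol for 30 min and 1 mM H2O2 for 1 min and taken up on streptavidin beads, per the labels. The authors deposited raw whole-number counts per Ensembl ID, made with cutadapt, HISAT2 and featureCounts on GRCh38, per the submitters' processing notes; versions, strand setting and the treatment of shared reads are not stated in the sources used, so overlapping or antisense genes cannot be told apart. Amplified copies count as separate reads.

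The 20 naive and 17 stress-table libraries were tested separately with edgeR 4.0.16 (R 4.3.3): filterByExpr by group, TMM over the table, robust dispersions and glmQLFit, 2-sided quasi-likelihood F tests and Benjamini-Hochberg adjustment over all IDs tested. A called ID has an adjusted p under 0.05. Pulldown-over-input and input-adjusted contrasts were fitted over all libraries of a table. Contrasts of conditions within a fraction were fitted over the libraries of that fraction, because earlier work on these files found replicates to spread more in pulldowns. SE is the log2 fold change divided by the square root of F. Alternatives were DESeq2 1.42.0, library size scaling, no count filter, other sets of libraries, no input correction, a replicate block and each library left out; TMM over the libraries fitted was added after seeing the data. The edgeR step was tested on simulated data.

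The genes and comparisons were chosen with earlier results of these data known. The 8 genes entered every comparison whatever their values. No label says that replicates were separate cultures, so p-values measure only how much these libraries vary, possibly for technical reasons. The libraries of a pair differed by more than sampling noise. Same-numbered pulldowns and inputs deviated together little (correlation -0.07 to 0.14 across IDs), so numbers were not taken as pairs. One column name belongs to 2 samples and stands for eIF4A input replicate 2 among naive libraries and for DMSO input among stress libraries. The reference table held no Ensembl IDs, so 0 IDs were matched to symbols; the symbols of the 8 genes came with their IDs, other gene lists and cell markers were not applied, and the levels of the fused genes were not checked. RefSeq supplied coordinates and start sequences.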

Additional observations from a re-analysis of the deposited data

Results flagged for a closer look

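HUWE1 is set apart because in the main fit its pulldown over input differed between constructs by a test of the difference itself. On the log2 scale CBX1 minus GFP was -0.74 ± 0.15 (SE) with an edgeR adjusted p of 0.0382. This call depended on single libraries, as given above, although the size changed little. It was also lost with library-size scaling, with no count filter and with a replicate block, and held with DESeq2. The pulldowns alone differed by -0.47 ± 0.11, so the inputs contributed to the difference. The cause was not tested. The groups hold 2 libraries each, too few to look for a library that stands apart within a group.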

How the results depend on the processing

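The number of the 8 genes called is given for each setting, other than leaving out 1 library, that changed it by over 1.5 times. Percentages beside it are the share of all IDs called, in either direction. The causes were not tested. With library-size scaling, CBX1 pulldown over input gave 5 (7.33% of all IDs), against 2 as reported (3.91%). CBX1 minus GFP gave 0 (0.201%), against 1 as reported (0.161%). CBX1 minus GFP also gave 4 with DESeq2 (0.354%) and 0 with no count filter (0.0865%). It gave 2 with only the libraries compared (0.298%) and 0 with a replicate block (0.169%). With only the libraries compared, C1 pulldown over input gave 0 (0.121%), against 3 as reported (6.45%). Without input correction, CBX1, C1, eIF4E and eIF4A minus GFP gave 2, 3, 2 and 1 (1.53%, 6.7%, 5.46% and 1.64%). There eIF4A minus eIF4E gave 2 (2.16%), and all these calls were lower. Input-adjusted, 0.161% of all IDs were called for CBX1 minus GFP and 0.0% in each of the others. AHNAK for eIF4A minus eIF4E was -0.78 without input correction, against 0.03 input-adjusted. T20 pulldown over input gave 1 with DESeq2 (3.95%) and 2 with a replicate block (1.83%), against 0 as reported (0.372%). SRRM2 was the 1 gene called for T20 over T0 in pulldowns (0.444%). That count fell to 0 with all libraries (0.144%), no count filter (0.144%), only the libraries compared (0.803%) and the replicate block (0.492%). The replicate block changed no other count of called genes by over 1.5 times. Same-numbered T20 and T0 inputs deviated in opposite directions (-0.699 across IDs). A block with the T0 numbers crossed was an alternative chosen after seeing the data. With it 2 genes were called for T20 over T0 in inputs, MACF1 and SRRM2. It also called 13.7% of all IDs, against 1.15% as reported.

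With 1 library left out, the called genes for pulldown over input numbered 0 to 2 in CBX1, 0 to 4 in C1, 2 to 2 in eIF4A, 3 to 6 in eIF4E and 5 to 8 in GFP, 0 to 0 for CBX1 minus GFP, 0 to 1 for C1 minus GFP and 0 to 1 for T20 over T0 in pulldowns; such fits assume that a lone library varies like the other groups. Over 1568 single-gene values from all alternatives, 62 calls were lost, 34 gained, 1 called value changed sign and 118 uncalled values changed sign. Most of the 1568 values belong to results that were not called in the main fit, so the lost calls are not to be read as a share of 1568. AHNAK had 30 to 245 counts in stress-table pulldowns, which limits its precision there.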
